A study of Silurus meridionalis with 18 samples.

Results

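The Skin library of the adult southern catfish, Silurus meridionalis, was compared with the Muscle library gene by gene. Both are defined by their tissue labels, and they are 2 of the 18 libraries of the study, each from a different tissue. All were made from polyadenylated RNA of adult fish taken from a benthic (bottom) environment, and no treatment, genotype, sex, age or body site is named. Each tissue was 1 library, so there is no replicate check, no test was run, and tissue cannot be told apart from individual, dissection, library or depth. Levels are in FPKM as deposited by the authors, a fragment count corrected for the length of the gene model and for library depth. A difference is the log2 ratio of FPKM + 1, Skin over Muscle, so a positive value means more in Skin, and the scale understates the differences of low genes. A gene was compared where Skin or Muscle reached an FPKM of 5, and a log2 ratio of at least 2 in size (4-fold) was counted as higher.

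Catfish skin has no scales. Its living epidermis is a layered epithelium held together by keratin filaments, desmosomes and tight junctions, and mucus cells and alarm-substance club cells lie among the keratinocytes. The dermis below is rich in collagen and holds pigment cells, vessels and nerves. The trunk muscle of fish is mostly white, fast-contracting and glycolytic, and red, slow-contracting and oxidative fibers form a thin wedge under the skin along the lateral line. Fast and slow fibers use different genes for the same parts of the contractile apparatus: myosin heavy and light chains, troponins, the calcium pump and the calcium release channel.

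Depth was low in both libraries, at about 6330000 fragments in Skin and 9540000 in Muscle, estimated from the smallest steps of the FPKM values, against 20200000 to 51000000 in the other libraries. A gene model of 1000 coding bases with 3 fragments would have an FPKM of 0.474 in Skin and 0.314 in Muscle, and lower values are near or below what these libraries can resolve. At an FPKM of at least 1 there were 11791 genes in Skin and 6297 in Muscle. In Muscle 46.9% of the summed FPKM came from its 10 highest genes, and in Skin 15.8%. Ribosomal protein genes held 58.9% in Skin, the highest share of the 18 libraries, and 23.5% in Muscle. All levels are relative to the fragments of their library, not to the summed FPKM, which was 590057 in Skin and 824101 in Muscle. In these bulk samples, fewer cells of a type and less RNA per cell cannot be told apart.

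Most genes stood at a higher level in Skin than in Muscle. Of 6027 genes compared, 2408 (40.0%) were at least 4-fold higher in Skin and 249 (4.13%) at least 4-fold higher in Muscle. The median log2 ratio of all compared genes was 1.59, with quartiles of 0.37 and 2.55, so the middle of the distribution was itself shifted toward Skin. Measured from that median, 511 genes (8.48%) were higher in Skin and 887 (14.7%) in Muscle, and the share of all calls that lay in Skin went from 90.6% to 36.6%. Directions below are those of the deposited values, and counts relative to the median of 1.59 are given beside them. All list counts below stand against these shares of 40.0% and 4.13%, or of 8.48% and 14.7% relative to the median. In every list, a gene that passed the FPKM minimum in a single library was favored for a call in that library. Of the compared genes, 220 were listed at 0 in Muscle and 2 were listed at 0 in Skin.

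**Figure D1:**
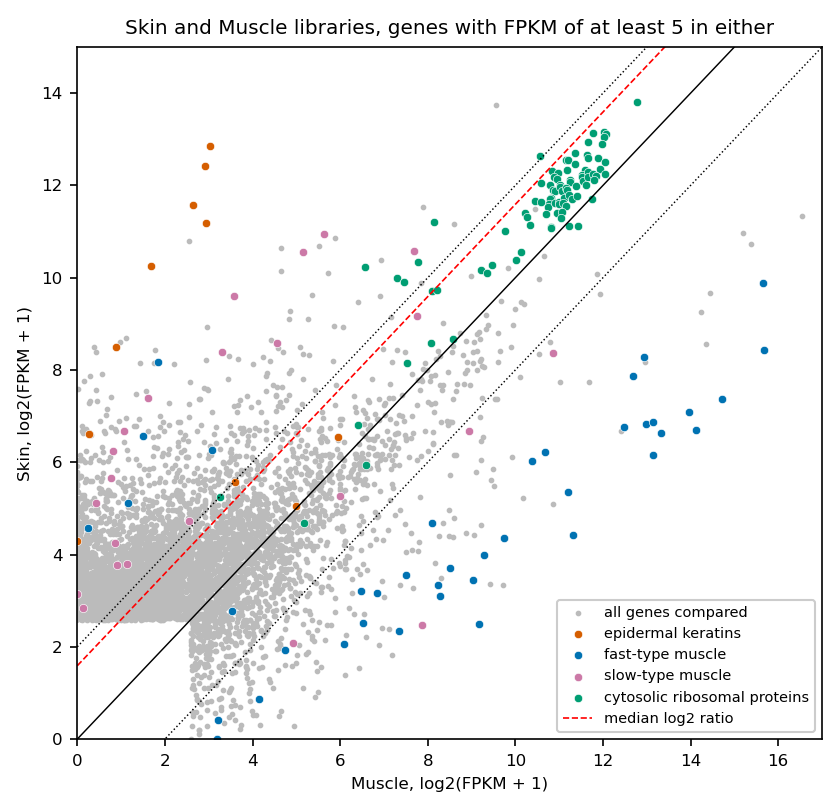
Each point is a compared gene (5 FPKM or more in Skin or Muscle) at its log2(FPKM + 1) in Muscle (x axis) and Skin (y axis). The solid line marks equal levels, the dotted lines a log2 ratio of 2 in either direction and the red dashed line the median of 1.59. Most keratin genes (orange) lie far above the lines, most fast-type muscle genes (blue) far below, and slow-type genes (pink) mostly above. Ribosomal protein genes (green) run from a log2 ratio of -0.66 to 3.65, with their own median of 0.81 between equality and the all-gene median.

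The keratins, which form the intermediate filaments of epithelial cells, led the Skin side. The highest was a type I cytokeratin of the enveloping layer type (C0J45_09361, chromosome 9 from 28842071 to 28854326), with an FPKM of 7379 in Skin and 7.18 in Muscle, a log2 ratio of 9.82. It was among the 10 highest genes of Skin. Another type I cytokeratin (C0J45_20521) had 5442 and 6.54, keratin 92 had 3039 and 5.2, keratin 97 had 1213 and 2.21, and a keratin 4 on chromosome 1 (C0J45_00982) had 2331 and 6.61. All of these were also high in the maxillary barbel, where they ran from 1778 to 26435. Of 27 keratin models 11 were compared, 8 of them were higher in Skin by at least 4-fold, none in Muscle, and the same 8 against 0 were found relative to the median. Several of the 8 passed the FPKM minimum only in Skin, which favors a call in Skin. The median log2 ratio of the 11 was 7.62, and that of all 27 models, without the minimum, was 0.06. Of all 27 models, 12 were listed at 0 in Skin and 16 were listed at 0 in Muscle. Summed over all 27, keratin FPKM was 20053 in Skin and 132 in Muscle, where keratin 8 and keratin 18 held 61 and 30.9 of it.

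Not every keratin followed. Keratin 8 and keratin 18, the partner keratins of simple, unlayered epithelia, had an FPKM of 92.4 and 32.4 in Skin, against 61 and 30.9 in Muscle. They lie beside a pair of keratin 4 genes on chromosome 16, all between 10623363 and 10687828, and those neighbors behaved differently. Keratin 4 C0J45_14629 had 359 in Skin, 0.832 in Muscle, and 6.74 and 5.22 in the maxillary and mandibular barbels. Keratin 4 C0J45_14628 had 97.5 in Skin, 0.21 in Muscle, and 0.517 and 0.244 in the barbels. These neighbors were thus far lower in the barbels than in Skin, while the keratin 4 of chromosome 1 was far higher there, at 26435 and 21978. Keratin copies can share reads, so the value of any copy is uncertain.

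Most compared junction genes were higher in Skin. Of 25 models of desmosomes and the cornified envelope, 16 were compared, and all 16 were higher in Skin by at least 4-fold. Their log2 ratios ran from 2.21 to 6.0, and 11 of them were also higher relative to the all-gene median. The list median was 4.13, and 3.15 without the FPKM minimum. Desmoplakin, which ties keratin filaments to the desmosome, was present as 2 models, at 108 in Skin and 0.698 in Muscle, and at 53.8 and 0.494. Plakophilin-3, plakophilin-1, desmoglein-2 (C0J45_19918) and desmocollin-1, further parts of the same junction, lay between 22.9 and 38.2 in Skin and between 0.115 and 0.325 in Muscle. Of 37 models of tight junctions and cell adhesion 19 were compared, of which 17 were higher in Skin and none in Muscle (9 and 1 relative to the median). Their median log2 ratio was 3.38, and 1.56 without the FPKM minimum. Most compared genes of both lists passed the minimum only in Skin, which favors a call in Skin. Epithelial cell adhesion molecule had 141 and 0.59, and occludin, a membrane protein of tight junctions, had 63.2 and 0.122. Outside the list, claudin b, which seals the space between epithelial cells, had 239 and 0.49, and claudin a had 188 and 0.339. These 2 claudins were named for their large log2 ratios toward Skin. Within the list, the exceptions were scaffold proteins that other cells also use. ZO-1 had 5.19 in Skin and 2.52 in Muscle. A ZO-2 model (C0J45_15797) had 4.05 and 9.24, whereas the other ZO-2 model had 30.7 and 0.079.

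Of 19 models of transcription and splicing factors of epidermis, 13 were compared. All 13 were higher in Skin, 9 of them also relative to the median. Their median log2 ratio was 3.87, and 3.35 without the FPKM minimum. Each passed the minimum only in Skin, with 0.534 as the highest Muscle value, so a call in Skin was nearly fixed by the filter. Tumor protein 63, which maintains the basal layer of layered epithelia, had 36.2 in Skin and 0.303 in Muscle. Grainyhead-like 2a, a regulator of epithelial junctions, had 50.8 and 0.0573. Krueppel-like factor 5-like had 67.2 and 0.251, and epithelial splicing regulatory protein 2, which sets the epithelial splice forms, had 36.4 and 0.0462. Muscle was thus near or below its resolution for each of these regulators. Of the 15 named genes with the largest log2 ratios toward Skin, 6 were keratins and 2 were claudins. The rest included cystatin B, an inhibitor of cysteine proteases (360 and 0.305), non-muscle cofilin 1, which severs actin filaments (335 and 0.334), histamine N-methyltransferase, which inactivates histamine (412 and 1.16), and annexin A3b, a calcium-dependent membrane-binding protein (160 and 0.357).

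**Figure D2:**
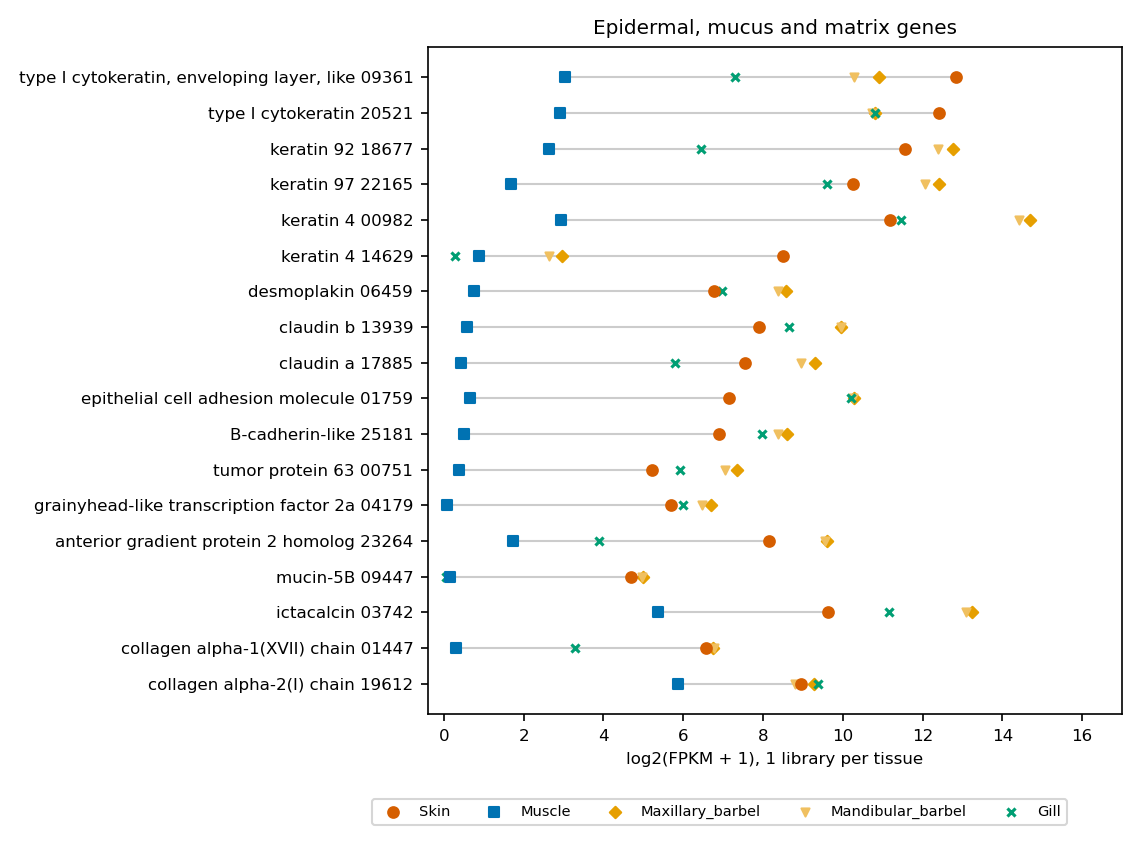
Levels of 18 epidermal, mucus and matrix genes as log2(FPKM + 1), 1 library per tissue, with the end of the gene model's number beside each name and a gray line from Muscle (blue squares) to Skin (orange circles). Skin is above Muscle for each gene shown, the barbels (diamonds and triangles) are above Skin for many of them, and the keratin 4 with 359 in Skin and 6.74 in the maxillary barbel stands out. Green crosses are Gill, and the genes shown were picked with their values known.

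Genes of mucus cells were detected in Skin and near 0 in Muscle. All 7 compared genes of this list were higher in Skin, 3 of them relative to the median, but 20 of its 27 models were below the level for comparison. The 7 reached that level only in Skin. Anterior gradient protein 2, which folds mucins in secretory cells, had 285 in Skin and 2.35 in Muscle. Mucin-5B, a gel-forming mucin, had 24.7 and 0.115, close to the barbels' 31.1 and 30.2. Mucin-2-like and IgGFc-binding protein, another mucus component, had only 8.64 and 9.81 in Skin against 147 and 206 in the maxillary barbel. An ictacalcin, an S100-type calcium-binding protein first described in catfish surface tissues, had 789 in Skin and 40 in Muscle (C0J45_03742, chromosome 4 from 4232522 to 4251935). Its near neighbor C0J45_03739 had 12.9 and 0.0259, against 4141 and 3776 in the barbels. Of 5 compared ictacalcin and S100 genes, 3 were higher in Skin and none in Muscle, and the same was found relative to the median. Most of the 3 passed the FPKM minimum only in Skin, which favors a call in Skin. The list median log2 ratio was 3.76, and 0.87 without the minimum.

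Defense genes did not form a uniform group. Of 16 compared, 7 were higher in Skin and none in Muscle, a share near the 40.0% of all compared genes called in Skin. Relative to the median 4 were higher in Skin and 5 in Muscle. The list's median log2 ratio of 0.98 became -0.61 on that scale. Lysozyme-like protein 2, named for the enzyme that cleaves bacterial walls, had 177 in Skin and 1.52 in Muscle, and 9.25 and 14.8 in the barbels. It had 82.4 in Gill and was highest in the head kidney, at 1349. A lysozyme g-like 1 model (C0J45_04774) had 66 in Skin and 1.21 in Muscle, and was also highest in the head kidney, at 519. Beta-2 microglobulin, the light chain of MHC class I, had similar levels of 150 and 128, and the lysosomal protease cathepsin B had 56.9 in Skin and 96.9 in Muscle.

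Among matrix and basement membrane genes, the difference between Skin and Muscle varied. The Skin library was a bulk sample, so these values are not those of a single skin layer. Of 15 compared matrix genes 6 were higher in Skin and none in Muscle, a share near the 40.0% of all compared genes called in Skin. The list median of 1.72 was close to the all-gene median, with 1 gene higher relative to it. A collagen I alpha-2 model of 387 coding bases (C0J45_19612) had 494 in Skin and 57.3 in Muscle. The longer collagen I alpha-1 model C0J45_13027 had 56.7 and 14.4, against 380 in the maxillary barbel and 600 in Gill. SPARC, a collagen-binding matrix protein, had 134 in Skin and 47.3 in Muscle. The whole matrix list summed to 1105 in Skin and 201 in Muscle, but to 3558 in the maxillary barbel, 4424 in Gill and 3505 in Heart. Fibrillin-1 (5.3 and 4.8) and the collagen IV alpha-2 chain of all basement membranes (5.51 and 4.43) were at like levels. Of 9 compared basement membrane genes, 6 were higher in Skin and none in Muscle (3 and none relative to the median). Most of the 6 passed the FPKM minimum only in Skin, which favors a call in Skin. The list median log2 ratio was 2.80, and 0.69 without the minimum. Collagen XVII alpha-1 had 94.7 and 0.242, integrin beta-4 had 65.2 and 0.409, laminin gamma-2 had 13.6 and 0.111, and collagen VII alpha-1 had 6.81 and 0.12. The 3 models of dystonin, a linker of the hemidesmosome to keratin, were nearer to the all-gene median, with log2 ratios of 2.06, 1.90 and 1.59. Collagen XVII and integrin beta-4 anchor basal keratinocytes, and their Skin levels were close to those of the maxillary barbel, at 106 and 61.4. Of 24 pigment cell models, 2 could be compared: melanoma antigen recognized by T-cells 1, a melanosome protein, had 36.6 in Skin and was listed at 0 in Muscle, and purine nucleoside phosphorylase 5a had 8.1 and 0.508 and was not higher relative to the median.

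Muscle was led by contractile proteins and by enzymes of sugar breakdown and phosphocreatine. Its highest gene was a glyceraldehyde-3-phosphate dehydrogenase (C0J45_04122), with 95139 in Muscle and 2588 in Skin. The skeletal regulatory myosin light chain 2 (C0J45_12784) followed with 52192 and 344, and an alpha-actin (C0J45_07818) with 51887 and 945. The largest log2 ratio toward Muscle was that of a tropomyosin alpha-1 chain (C0J45_08975, chromosome 9 from 16590687 to 16596205), which winds along the actin filament and had 17803 in Muscle and 103 in Skin, a log2 ratio of -7.42. The fast form of each thin-filament switch protein was far higher in Muscle. Skeletal troponin C (C0J45_14587), which binds calcium, had 10246 in Muscle and 98.7 in Skin, fast troponin T (C0J45_09932) had 9042 and 117, and fast troponin I (C0J45_09928) had 1335 and 64.4. Parvalbumin-7, a calcium buffer that speeds relaxation, had 15976 and 136. Of 40 compared fast-type genes, 34 were higher in Muscle, 5 in Skin and 1 in neither, with a median log2 ratio of -4.81 (35, 4 and 1 relative to the median).

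Slow-type genes ran the other way: 17 of 23 compared were higher in Skin, 4 in Muscle and 2 in neither, with a median log2 ratio of 3.15. Relative to the all-gene median, 10 were higher in Skin and 5 in Muscle. Most of the 17 passed the FPKM minimum only in Skin, which favors a call in Skin. The list median was 2.41 without the minimum. Some list members were also present in the barbels, while most others were near 0 there. Tropomyosin alpha-3 chain C0J45_17959 had 25.3 in Skin and 4.86 in Muscle, but 118 and 134 in the barbels. Tropomyosin alpha-3 chain C0J45_23191 had 334 and 8.92, and 55.9 and 60.7 in the barbels. Slow myosin heavy chain 3 (C0J45_04426, chromosome 4 from 22869609 to 22898626), a motor protein of slow fibers, had 773 in Skin and 11 in Muscle. Slow troponin C type 1b had 1503 and 34.7, and the regulatory myosin light chain 10 (C0J45_11045) had 1985 and 48.7. Slow troponin I was present as 4 models, which had 168, 101, 74.5 and 7.89 in Skin and 2.07, 1.11, 0.766 and 0 in Muscle. Every compared slow troponin model was thus higher in Skin, slow troponin T with 12.9 and 1.21 included. Heart-type fatty acid-binding protein, a fatty acid carrier, had 1531 in Skin and 206 in Muscle. Myoglobin, which stores oxygen in red fibers, had 574 and 216, a log2 ratio of 1.41 that was not counted as higher. Its log2 ratio relative to the all-gene median was -0.18.

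The 4 slow-list genes higher in Muscle were 3 models of myozenin-2, a Z-disc protein, and mitochondrial creatine kinase S-type, which makes phosphocreatine beside the mitochondrion. The last of these had 1862 in Muscle and 327 in Skin. Slow-type myosin-binding protein C had 63.2 in Muscle and 37.7 in Skin. Genes outside the list were chosen after their values were seen and, like most slow-type genes, were higher in Skin than in Muscle. Troponin T2e of cardiac type was present as 2 models, with 1594 in Skin and 24.2 in Muscle (C0J45_16244) and with 489 and 6.76 (C0J45_05295). Each lies near a slow troponin I model, on chromosomes 18 and 5. A cardiac myosin light chain-1 had 125 and 4.84, and tropomyosin beta chain had 313 and 10.1. Tropomyosin beta chain was highest in Intestine, at 1489, so it is not particular to muscle.

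**Figure D3:**
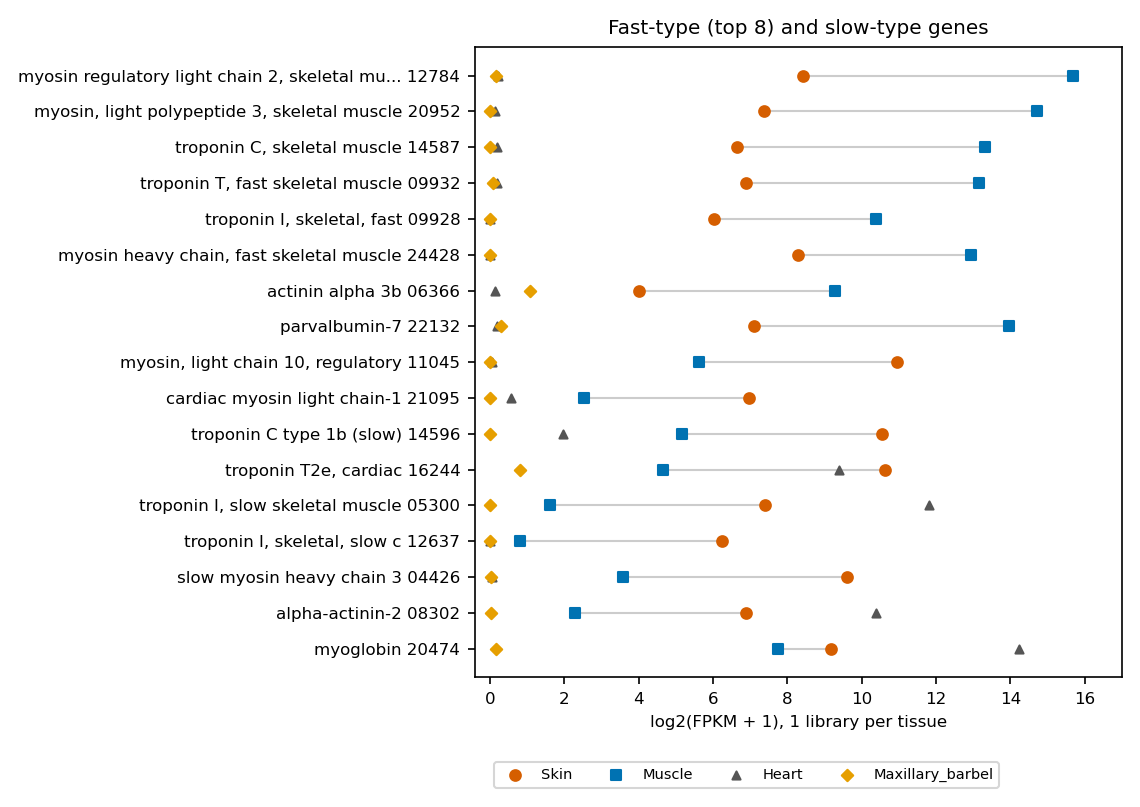
Levels of 8 fast-type genes (upper) and 9 slow-type or cardiac-named genes (lower) as log2(FPKM + 1), 1 library per tissue, with a gray line from Muscle (blue squares) to Skin (orange circles). The fast-type genes are higher in Muscle and the slow-type genes higher in Skin, and the maxillary barbel (yellow diamonds) is near 0 for nearly all of them, with actinin alpha 3b at an FPKM of 1.13 as its highest here. Gray triangles are Heart, and the genes shown were picked with their values known.

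Skeletal muscle transcripts were therefore part of the Skin library. Summed over its 55 models, the fast list reached an FPKM of 3615 in Skin, which is 1.55% of the 233821 in Muscle. It summed to 56 and 78.5 in the maxillary and mandibular barbels, and to 13940 in Heart. The list also holds alpha-actins with cardiac names, so its sum is not a measure of fast fibers alone. Of these, C0J45_20055 had 9774 in Heart and C0J45_07818 had 945 in Skin. The slow list of 32 models summed to 8069 in Skin, 3242 in Muscle and 34033 in Heart. In the barbels it summed to 1049 and 1053, much of it heart-type fatty acid-binding protein (846 and 824). The slow sum was larger than the fast sum in Skin, and the fast sum was larger than the slow sum in Muscle. Of the fast list, 9 models were listed at 0 in Skin, and of the slow list 3. Slow myosin heavy chain 3 had 0.0214 in the maxillary barbel, was listed at 0 in the mandibular barbel and had 0.0485 in Heart, whereas slow troponin I C0J45_05300 had 3612 in Heart. Whether muscle tissue was included when the skin was taken is not stated, and its part in the other differences was not tested.

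Genes that build the sarcomere's frame differed less than the filament genes. Of 27 compared Z-disc, titin and costamere genes, 12 were higher in Muscle, 3 in Skin and 12 in neither, with a median log2 ratio of -1.89. Relative to the all-gene median 22 were higher in Muscle and 2 in Skin. Desmin, the intermediate filament of muscle, had 612 in Muscle and 92.6 in Skin, and telethonin, the titin cap, had 746 and 165. Nebulin, which spans the thin filament, had 47.2 and 11.9. The actinins, which cross-link actin at the Z-disc, split by form: the fast-fiber actinin alpha 3b had 626 in Muscle and 15 in Skin, while alpha-actinin-2 had 117 in Skin and 3.91 in Muscle (C0J45_08302). A further alpha-actinin-2 model had 31.2 and 0.0833.

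Genes of excitation were higher in Muscle by a smaller margin. Of 8 compared, 3 were at least 4-fold higher in Muscle and none in Skin, and all 8 were so relative to the median. Junctophilin-2, which holds the calcium store against the surface membrane, had 39.8 in Muscle and 3.53 in Skin, and the muscle acetylcholine receptor alpha subunit had 23.8 and 10.1. Among 9 compared myogenic regulators, 2 were higher in Muscle and none in Skin (7 and none relative to the median). These were the neighboring homeobox genes six1b and six4b on chromosome 23, which favor the fast program in zebrafish and mouse: six1b had 94.6 in Muscle and 3.67 in Skin, and six4b had 18 and 2.45. Myogenin, which drives myoblast differentiation, was nearly level at 6.65 and 5.03, and myoblast determination protein 1 had 16.4 and 6.93.

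Nearly all of glycolysis and phosphocreatine metabolism was higher in Muscle. Of 23 genes compared, 19 were higher in Muscle, 1 in Skin and 3 in neither, with a median log2 ratio of -4.23 (20, 0 and 3 relative to the median), and the summed FPKM was 257639 in Muscle and 8907 in Skin. Muscle creatine kinase a had 42544 in Muscle and 1696 in Skin, and creatine kinase M-type had 37689 and 2013. These enzymes buffer ATP through phosphocreatine. Of the glycolytic enzymes, aldolase a had 22288 and 810, beta-enolase 20923 and 380, and phosphoglycerate mutase 2 had 5465 and 101. Glycogen phosphorylase of muscle form, which releases glucose units from glycogen, had 1151 and 36.3. Muscle glycogen synthase, which builds glycogen, differed by less than 4-fold, with 47.8 in Muscle and 14.1 in Skin. The other 3 genes not higher in Muscle were higher in the maxillary barbel than in Skin. Glyceraldehyde-3-phosphate dehydrogenase 2 had 74 in Skin, 10.2 in Muscle and 190 in the maxillary barbel, glucose-6-phosphate isomerase a had 17.6, 7.11 and 43.7, and pyruvate kinase PKM had 13.8, 10 and 57.6.

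Respiratory chain genes of the nucleus were nearly level between the libraries in the deposited values, but not relative to the all-gene median. Of 80 compared, 78 differed by less than 4-fold, with a median log2 ratio of -0.65. Relative to the all-gene median this became -2.24, and 52 were higher in Muscle. The 5 named non-ribosomal genes with the smallest differences at an FPKM of at least 50 were all mitochondrial in function. Relative to the all-gene median, their log2 ratios ran from -1.60 to -1.57. They included a complex I subunit (NADH dehydrogenase 1 alpha subcomplex subunit 13, 93.7 in Skin and 94.1 in Muscle), ATP synthase subunit d (254 and 252) and the COX17 assembly factor (119 and 118). The largest difference toward Muscle was in ATP synthase membrane subunit c locus 3b, a proton-carrying subunit, with 1768 in Muscle and 390 in Skin.

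Genes of the mitochondrial genome, in contrast, disagreed with each other. Cytochrome c oxidase subunit II had 1788 in Skin and 4.85 in Muscle, and subunit I had 163 and 26.2. The subunit II model has only 312 coding bases, against 1530 for subunit I. Subunit II and ATP synthase F0 subunit 6 are placed on the same strand, and subunit I on the opposite strand. Whether these models cover the whole genes was not tested, so their levels are uncertain. ATP synthase F0 subunit 6, on the same assembled sequence, had 20.2 in Skin and 304 in Muscle, and NADH dehydrogenase subunit 1 had 216 and 234. Subunits I and II of cytochrome c oxidase are parts of the same enzyme, yet their levels differed from each other in opposite order in the 2 libraries. Of 8 models 6 were compared, of which 2 were higher in Skin and 1 in Muscle (1 and 1 relative to the median). The 8 models held 0.375% of the summed FPKM in Skin and 0.0706% in Muscle, against 11% in Heart. The 13 compared genes of fatty acid use had a median log2 ratio of 0.84. Of these, 4 were higher in Skin and none in Muscle, against 40.0% of all compared genes called in Skin. No gene was called in either direction relative to the median.

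Ribosomal protein genes were among the highest of Skin, where 8 of the 10 highest genes were of this kind. Ribosomal protein L35 was the highest gene of the library, with 14295 in Skin and 7033 in Muscle. Of 92 compared, 6 were higher in Skin by at least 4-fold and none in Muscle, against 40.0% of all compared genes called in Skin. Their median log2 ratio of 0.81 became -0.78 relative to the all-gene median and -1.08 with both libraries at the same upper quartile. The direction for this family therefore depends on the scaling. Copies with much larger differences were L22-like 1, with 1199 and 94.6, and an acidic P2 (C0J45_02211), with 2375 and 280. The second highest gene of Skin was named HAUS augmin-like complex subunit 6, after a part of the mitotic spindle (C0J45_06748, chromosome 7 from 2009651 to 2020407). It had 13780 in Skin, 748 in Muscle, 1453 in Heart and 78.3 in the maxillary barbel. Whether another transcript shares its reads was not tested, so the level may not be that of the named protein's gene.

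**Figure D4:**
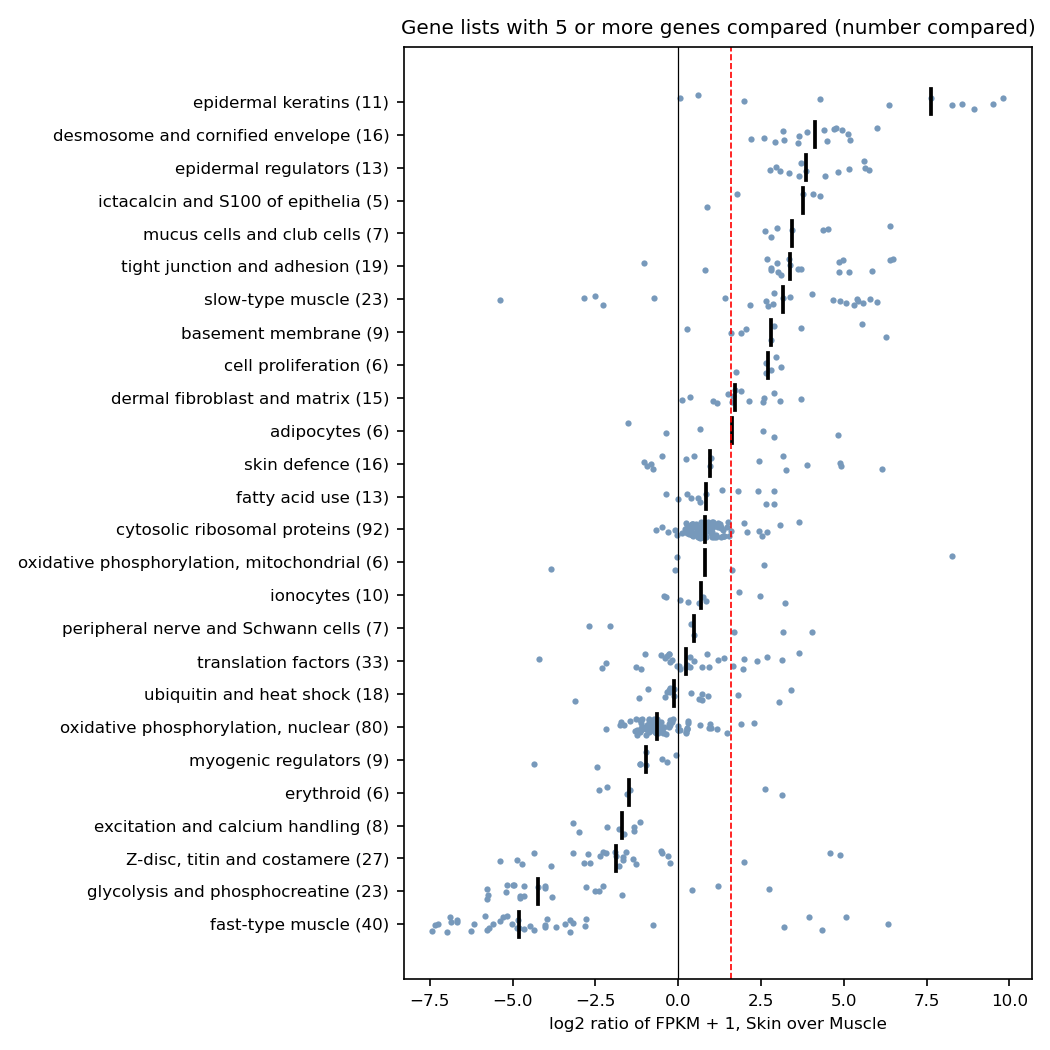
Each point is a compared gene at its log2 ratio of FPKM + 1, Skin over Muscle, in 1 of the gene lists with at least 5 compared genes, whose number stands beside its name. Black bars are list medians, the black line marks equal levels and the red dashed line the median of all genes, 1.59. Lists run from epidermal keratins at 7.62 to fast-type muscle at -4.81, and slow-type muscle (3.15) lies among the epithelial lists.

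Copies of several genes ran in opposite directions. Among 389 protein names shared by 2 or more compared gene models, 12 names had a model at least 4-fold higher in Skin and a model at least 4-fold higher in Muscle. Of all compared genes, 40.0% were called in Skin and 4.13% in Muscle. Whether unrelated genes would differ in direction as often was not tested, so the count of 12 is not a result about copies. Those described here, and pairs with differing names, were chosen after their values were seen. Ryanodine receptor 1, the calcium release channel of muscle, had a copy with 22.9 in Skin and 0.184 in Muscle (C0J45_11054, chromosome 11 from 22646047 to 22667821). Its other copy had 0.827 in Skin and 16.7 in Muscle (C0J45_12565, chromosome 13 from 25367112 to 25434210). The highest value of either copy in the barbels or Heart was 0.169. The calcium pump that refills the store, sarcoplasmic/endoplasmic reticulum calcium ATPase 1, had a copy with 287 in Skin and 2.58 in Muscle (C0J45_12881). The other copy, named as a fast-twitch 1 like calcium ATPase, had 108 and 5682 (C0J45_06771).

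The same split was seen in the filament proteins. A myosin heavy chain gene named as fast (C0J45_04425) had 93.6 in Skin and 1.84 in Muscle, unlike the 8 other compared models of that name, which were all higher in Muscle. It lies at 22851331 to 22863899 on chromosome 4, next to slow myosin heavy chain 3 and 2 models of slow myosin heavy chain 2, which were also higher in Skin. Several of the other fast models are short fragments, such as C0J45_24428 with 981 coding bases and C0J45_17400 with 222. A model named cardiac-type myosin-binding protein C (C0J45_21899) had 33.1 in Skin, 0.288 in Muscle and 987 in Heart. Another model of that name (C0J45_04617) had 9.27, 686 and 0.111. The latter lies next to fast-type myosin-binding protein C (C0J45_04618), on the same strand of chromosome 4. That neighbor had 40.1 in Skin, 2355 in Muscle and 0.0417 in Heart. Whether these neighbors are parts of the same gene was not tested, so the shared cardiac name may not mark copies. An alpha-actin (C0J45_05354) had 75.5 in Skin and 7.38 in Muscle, opposite to the abundant C0J45_07818.

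Translation factors were split in the same way and are not muscle-specific genes. Elongation factor 1-alpha, which brings aminoacyl-tRNA to the ribosome, had neighboring copies on chromosome 22. C0J45_19464 had 2978 in Skin, 235 in Muscle and 6323 in the maxillary barbel, and C0J45_19463 had 800, 3929 and 128. Elongation factor 2, which moves the ribosome along the mRNA, had a copy with 776 in Skin and 120 in Muscle (C0J45_08537) and a copy with 126 and 580 (C0J45_22574). In both cases the copy that was higher in Muscle was at a lower level in Heart, at 404 and 70.1, than the copy that was higher in Skin, at 5069 and 1380. Over the whole list of 33 compared translation factors, 4 were higher in Skin, 3 in Muscle and 26 in neither, and relative to the median 1 was higher in Skin and 7 in Muscle. The 4 compare with a background of 40.0% of all genes called in Skin.

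**Figure D5:**
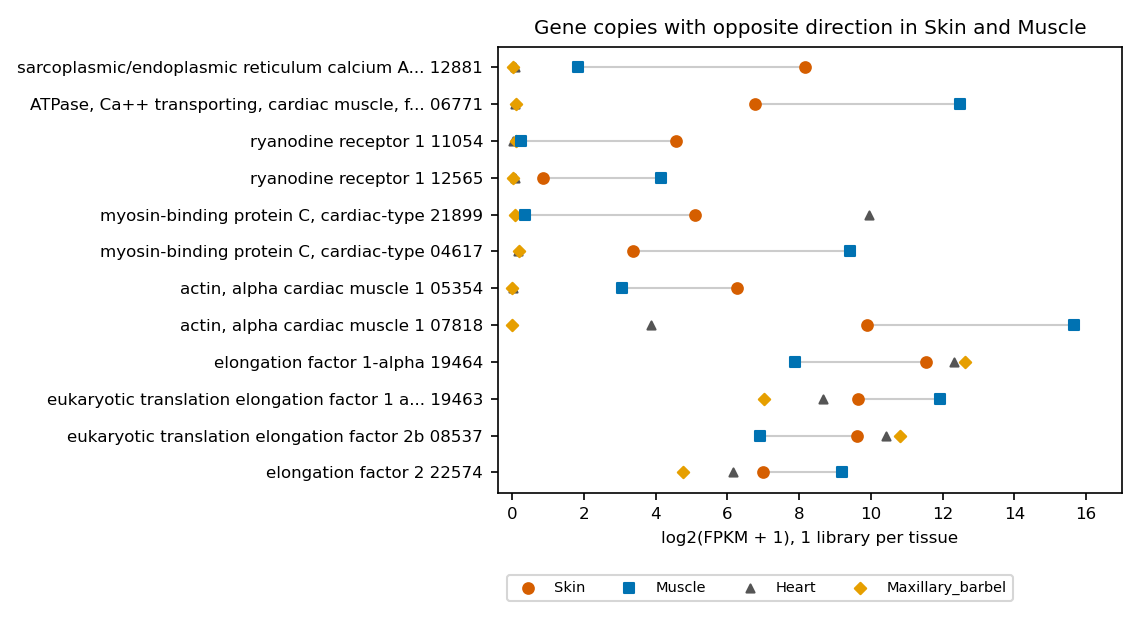
Levels of 6 pairs of gene copies as log2(FPKM + 1), 1 library per tissue, with a gray line from Muscle (blue squares) to Skin (orange circles). In each pair 1 copy is higher in Skin and the other in Muscle, and the pairs were chosen for this. An example is ryanodine receptor 1 at 22.9 and 0.184 against 0.827 and 16.7. Whether the models named cardiac-type myosin-binding protein C are copies was not tested.

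Most genes higher in Skin were also present in the barbels, the whisker-like sense organs covered by the same kind of surface epithelium. An FPKM of at least 5 in both barbels was found for 1992 of the 2408 (82.7%), against 82.8% of all compared genes, so this share was that of the background. An FPKM under 1 in both barbels was found for 87 (3.61%) of them, and for 150 of the 249 genes higher in Muscle (60.2%), against 5.97% of all. Of the genes higher in Muscle, 133 (53.4%) had an FPKM of at least 5 in Heart, against 71.7% of all compared. Among genes higher in Skin, 39 with an informative name and an FPKM of at least 10 were under 1 in both barbels. Many of these were the slow-type and cardiac-named muscle genes above. Others were fatty acid binding protein 7a, a lipid carrier known from brain (98.9 in Skin, 0.103 in Muscle and listed at 0 in both barbels, Gill and Heart), and G0/G1 switch protein 2, an inhibitor of fat breakdown (105 and 0.828). The position-setting homeobox gene Hox-C9a had 13.7 in Skin and 2 in Muscle, and Hox-C3a had 10.7 in Skin and was listed at 0 in Muscle, while in the barbels neither was above 0.0178.

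Other cell types gave few comparable genes, and their counts stand against the background of 40.0% of all genes called in Skin and 4.13% in Muscle. Of 6 compared erythroid genes, 2 were higher in Skin, 2 in Muscle and 2 in neither, and relative to the median none was higher in Skin and 4 in Muscle. Hemoglobin subunit beta-1 (C0J45_19307) had 152 in Muscle and 28.1 in Skin, against 5202 in Gill, and alpha globin-like had 344 and 119, a difference under 4-fold. A transferrin receptor protein 1 (C0J45_17513), which takes up iron, had 11.2 in Skin and 0.408 in Muscle, and an embryonic alpha hemoglobin had 5.09 in Skin and was listed at 0 in Muscle. The erythroid list summed to 187 in Skin and 581 in Muscle, with 11 and 12 of its 23 models listed at 0. No T cell or B cell gene reached the level for comparison, and of 13 macrophage and granulocyte models 2 did. Coronin-1A, an actin regulator of leukocytes, had 12.7 in Skin and 1.89 in Muscle, and neither gene was higher relative to the median. Of 7 compared nerve and Schwann cell genes, 2 erbB-3 receptor models were higher in Skin, at 16.4 and 9.43 against 0.0607 and 0.17, and 2 genes were higher in Muscle (1 and 2 relative to the median). The receptor erbB-3 serves Schwann cells but was also at 44 in the maxillary barbel. In the endothelium and vessel list 2 of 20 models were compared, transgelin (52.8 and 37) and aortic smooth muscle actin (28.1 and 28.5), both contractile proteins of smooth muscle, and these were nearly level.

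Of 14 sense organ models only inositol trisphosphate receptor type 3, a calcium channel used in taste cells, was compared, with 8.67 in Skin and 0.0964 in Muscle, and it was not higher relative to the median. Ionocyte genes had 2 of 10 higher in Skin, among them the sodium pump alpha-1 subunit with 36 and 5.69, and none in Muscle, but none in Skin and 1 in Muscle relative to the median. Proliferation genes were low in both libraries. Of 6 compared, 5 were higher in Skin and none relative to the median, with the replication factor MCM7 at 11 and 0.561. Adipocyte genes were split, with 3 of 6 higher in Skin, such as fatty acid binding protein 11b with 35 and 0.261, and none in Muscle (1 and 1 relative to the median). Of 18 ubiquitin and heat shock genes, 2 were higher in Skin and 1 in Muscle, against none and 3 relative to the median. The chaperone HSP 90-beta had 359 in Skin and 33.1 in Muscle, whereas HSP 90-alpha 1, which helps to fold myosin in zebrafish muscle, had 57.6 in Muscle and 5.75 in Skin.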

How the data were processed

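Per the labels' protocols, RNA was taken up in Trizol, treated with DNase I and selected for polyadenylation, and paired-end libraries were made with a Gnomegen kit. The deposited table gives the authors' FPKM for 25390 genes in 18 libraries, made with StringTie 1.3.4d per the submitters' processing notes. The aligner and the build were not given in the sources used here. A second deposited table gave protein names (uninformative for 4082 genes), 1-based coordinates and coding lengths, joined by locus tag.

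No test was run, as each tissue was 1 library. Ratios used a pseudocount of 1 and an FPKM minimum of 5 in either library. Depth was estimated from the smallest step that FPKM multiplied by coding length took in common. Only 16% (Skin) and 22.7% (Muscle) of low values lay within 0.02 of whole fragments, so no reads were recovered and no counting interval is given. Near-identical copies can share reads.

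The 32 lists (312 name patterns, 25 without a match) matched 961 gene models, of which 514 were compared. Members and lists were chosen with earlier results of these data known, and the name patterns were written after the tables had been opened. Genes named were list members, the 15 informative names with the largest ratio per direction at an FPKM of at least 10, the 10 highest genes per library, fast and slow forms, and 5 genes at equal levels. Exceptions are stated. Alternatives were another pseudocount, other minimums, an 8-fold threshold, 2 rescalings, centring, list means and 1 model per symbol. The steps were tested on simulated data. Values were computed in Python 3.11.15 with pandas 2.3.3 and numpy 2.4.6, and figures drawn with matplotlib 3.10.9.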

Additional observations from a re-analysis of the deposited data

How the results depend on the processing

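No paired analysis was possible because each tissue is 1 library and no test was run. Genes at least 4-fold higher in Skin numbered 2408, and 1432 at an FPKM minimum of 10, 911 at an 8-fold threshold, 912 with both libraries at the same upper quartile and 511 with the median ratio set to 0. Genes higher in Muscle numbered 249, and 122, 1016 and 887 under the last 3 of these. At the same summed FPKM, 2976 genes were higher in Skin and 187 in Muscle, so the 2 rescalings moved each count in opposite directions. A pseudocount of 0.1 gave 2880 and 290 genes, and an FPKM minimum of 1 gave 2824 and 254. The keratin median of 7.62 became 8.44 with a pseudocount of 0.1 and 0.06 without a minimum. Of the 27 keratin models, 12 are listed at 0 in Skin and 16 in Muscle. The keratin median became 6.27 at the same upper quartile and 6.03 with the median ratio set to 0. As a mean it was 6.0, and with 1 model per symbol the median was 9.82. The fast-type median of -4.81 became -3.68 without a minimum, -6.66 at the same upper quartile, -6.40 with the median set to 0, -3.81 as a mean and -5.74 with 1 model per symbol. The slow-type median of 3.15 became 4.29 with a pseudocount of 0.1, 2.41 without a minimum, 2.08 at the same upper quartile and 1.57 with the median set to 0. For ribosomal proteins 0.81 became -1.08 and -0.78 under the same upper quartile and the median set to 0. The same upper quartile and the set median each turned the sign of 8 list medians, among them defense, fatty acid use and translation factors. Of all list medians under the alternatives, 158 of 270 moved by less than 1.5-fold. Requiring 20 estimated fragments in either library, chosen after seeing the data, gave 2334 and 245 genes. Beyond the rescalings, the cause was not tested. Depth limits low genes, and 1 library per tissue limits every difference.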
